A study of Homo sapiens with 18 samples.

Results

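A region with a peak in one sample is a stretch of the genome at which methylated DNA was called enriched in a single MeDIP-seq library and in none of the other 8. MeDIP-seq sequences DNA fragments captured with an antibody against 5-methylcytosine, and a peak is a stretch where the authors' peak caller found more fragments than in the background. The members are the regions of the deposited MeDIP table on chr1 to chr22 that overlap, by at least 1 bp, a peak in exactly 1 of the 9 deposited peak lists. They numbered 30372 of 191688 regions on these chromosomes (15.8%), and the table held 198884 regions on all sequences. The members were therefore chosen by the peak calls of these same libraries, and what follows about their height in the library with the peak is a description of that choice. Each of the 30372 members had exactly the ends of its own peak.

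The cells were K562, an established human erythroleukaemia line, and every group carried a B2M:tdTomato transgene, a red fluorescent reporter tied to B2M, the gene of the small chain that MHC class I molecules need to reach the cell surface. The study asked what targeted methylation of the B2M promoter did to methylation and RNA across the genome. There were 3 untreated libraries, 3 of TALE silenced cells and 3 of dCas9 silenced cells, and the same 3 groups were sequenced for RNA. The treated cells had received 3 plasmids together, each coding for a different repressor (ATR in the labels), of which one was D3A-based, and the dCas9 cells also received a plasmid for a guide RNA. TALE proteins bind DNA through repeats matched to the target bases, and dCas9 binds where its guide RNA pairs. The labels name neither the age of the cultures at collection nor whether replicates came from separate treatments, so p-values measure the spread between these samples, which may be technical. Where both treatments are averaged, with equal weight, the groups are called silenced.

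MeDIP counts in the table ran from 2529729 to 4492751 per library and RNA counts from 8460076 to 12050554. All 10 K562 markers (among them GATA1, KLF1 and the gamma globins) had a mean of at least 1 CPM, a count scaled by the size of its library, with a summed level of 6724 to 10420 CPM per library. The 4 B cell markers summed to 0.355 to 1.95 CPM, the 4 T cell markers to 17.9 to 30.8 CPM with CD3E and CD2 under 1 CPM, and the 4 fibroblast markers to 5.08 to 11.6 CPM with COL3A1 and DCN under 1 CPM.

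In mammalian DNA, methylation sits mostly on the cytosine of CG pairs (CpG), and most CpGs outside of active promoters are methylated. The capture antibody needs several methylated CpGs on a fragment, so the signal depends on CpG density as well as on methylation. Alu elements are short primate repeats that are rich in CpG and carry much of the methylation of the human genome. Imprinted genes and germline genes are known for methylated promoters.

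One typical member was taken per group, the region of at most 300 bases nearest to the members' median length, GC content and CpG density. The same choice was made among regions with a peak in all 9 libraries. These lay in introns of PDE3B (untreated replicate 2), HNRNPM (TALE replicate 2) and USP34 (all 9 libraries), and between genes on chromosome 1 (dCas9 replicate 1). The 3 typical members held 6 CpGs each and the typical 9-peak region 9. The PDE3B member had 10, 7 and 2 counts in untreated replicates 1 to 3, 0, 8 and 1 in TALE and 2, 4 and 4 in dCas9. The library with the peak, untreated replicate 2, was therefore not the one with the most counts there. The HNRNPM member had 18 counts in its own library, TALE replicate 2, and 2 to 14 in the 8 others. The member between genes had 8 counts in its own library, dCas9 replicate 1, and also 8 in TALE replicate 2, which had no peak. The USP34 region had 11 to 24 counts in all 9 libraries.

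Members were found in every library and every group, and more of them came from the deeper libraries. Untreated replicates 1 to 3 held 4104, 2054 and 4281 members, TALE replicates 1578, 2193 and 5572, and dCas9 replicates 2295, 6194 and 2101. By group this came to 10439 (34.4%) in untreated, 9343 (30.8%) in TALE and 10590 (34.9%) in dCas9. The mean per library was 3480 ± 1238 (SD, n = 3) in untreated, 3114 ± 2151 in TALE and 3530 ± 2309 in dCas9, so the groups overlapped and the spread within a group was wider than the distance between groups. The 5 libraries with 2529729 to 2961704 counts had 1578 to 2295 members, and the 4 with 3753156 to 4492751 counts had 4104 to 6194, 66.3% of all members. Each group had libraries of both kinds. Members made up 1.79% (TALE replicate 1) to 5.14% (dCas9 replicate 2) of a library's own peak list, and these were also the libraries with the shortest list (87978 peaks) and the longest (120603 peaks).

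**Figure D1:**
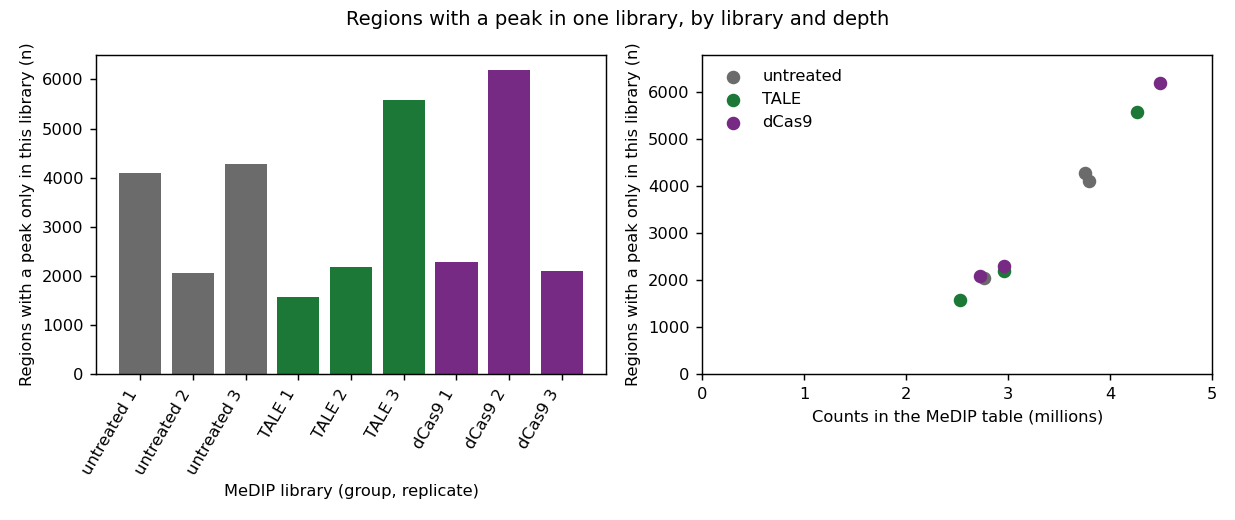
Left, number of regions with a peak in that library alone, for the 9 MeDIP libraries. Right, the same number against the counts in the MeDIP table coloured by group. The 5 shallower libraries have 1578 to 2295 members and the other 4 have 4104 to 6194, in all 3 groups.

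The members were short beside all peaks of their libraries, and weak. Their median length was 299 bp, with a range of 287 to 3895 bp, and 3037 (10.0%) were longer than 1000 bp. The median peak of a library was 622 to 699 bp long. Regions with a peak in 2 to 8 libraries were shorter than members, with medians of 225 to 283 bp, and those with 9 were longer (365 bp). No list held a peak under 287 bp, so the medians for 2 to 8 libraries are shorter than any whole peak. Each member is a whole peak, so these lengths do not compare like with like. In each library between 42.2% and 52.7% of members had exactly the shortest length on that library's peak list (287 to 299 bp), against 8.77% to 12.4% of all its peaks. The median member had 12 counts in the library with the peak, and 4.00 as the mean of the 8 others. On the CPM scale this was 3.85 against 1.40. At the edge of the rule, regions with a peak in 2 libraries had a median of 3.48 CPM in those libraries and 1.57 in the 7 without a peak. The mean CPM of members in their own library was 4.18, 5.11 and 4.22 for untreated replicates 1 to 3, 5.59, 4.99 and 3.80 for TALE, and 4.92, 3.74 and 5.38 for dCas9. The deeper libraries thus had the lower values, while the median count stayed at 11 or 12 in all 9. The means in the 8 libraries without the peak lay between 1.67 and 2.08 CPM for every set of members. The ratio of own library to others ran from 2.08 (dCas9 replicate 2) to 2.82 (TALE replicate 1).

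The library with the peak often, but not always, had the most signal. It held the highest CPM of the 9 libraries, ties included, in 24238 members (79.8%), from 68.5% in dCas9 replicate 2 to 94.6% in TALE replicate 1. A group of 504 members (1.66%) had no count in any library although a peak was listed, and another 229 had counts elsewhere but none in the library with the peak. Of the 504, 502 (99.6%) had central 31 bases that occur at more than 1 place in the genome, at a median of 75 places. Among members with a count this share was 41.5%.

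Signal at a member was nearly the same in the other libraries of its group as in libraries of other groups. Neither the 2 same-group libraries nor the 6 others have a peak there, so the rule sets the same condition on both. It also leaves out every region with a peak in another library of the group. Group signal strong enough for peaks in more than 1 library is thus outside of this comparison. The ratio of mean CPM in the 2 to that in the 6 was 1.02, 1.00 and 1.01 for members of untreated replicates 1 to 3. It was 0.968, 1.01 and 1.00 for TALE and 1.00, 1.03 and 0.998 for dCas9. Over the 9 libraries the mean ratio was 1.01 ± 0.0171 (SD, n = 9), with 7 of the 9 above 1, and its distance from 1 was less than the spread. Of the 19455 regions with 2 peaks, 4566 (23.5%) had both in 1 group, and 9 of the 36 possible pairs of libraries are of 1 group.

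**Figure D2:**
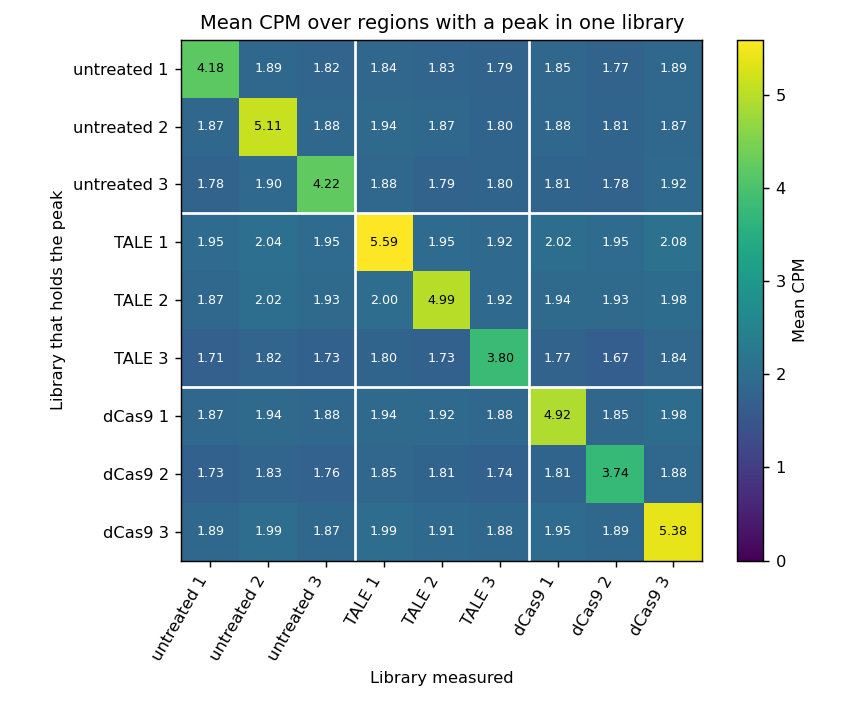
Mean CPM of members, with the library that holds the peak in rows and the library measured in columns. The diagonal lies between 3.74 and 5.59 CPM and all other cells between 1.67 and 2.08, with no block of higher values for libraries of the same group (white lines).

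Members were less dense in CpG than regions seen in more libraries. The median was 2.04 CpG per 100 bp for members, 2.41 for regions with 2 peaks and 3.14 for regions with 9. GC content was 48.4%, 50.4% and 51.5%, and the ratio of observed to expected CpG was 0.372, 0.411 and 0.495. The members of the 9 libraries resembled each other, with medians of 2.01 to 2.09 CpG per 100 bp and 48.0% to 49.0% GC. Mean signal over the 9 libraries was 1.65 CPM for the median member, 1.99 for regions with 2 peaks and 9.69 for regions with 9. Peaks and CPM come from the same reads, so these are not independent measures. CPM is also not divided by length, and the median lengths were 299, 283 and 365 bp in the same order. The number of regions fell from 30372 with 1 peak to 14029 with 5 and rose to 47497 with 9.

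Repeated sequence was common in members, but less so than in the regions with more peaks. The central 31 bases of 42.4% of members occurred at more than 1 place in the genome, against 45.6% for 2 peaks and 51.8% for 9. Among members of 280 to 320 bp, the 12-base word found most often (all 4 bases present, both strands counted together) was GCCTCAGCCTCC, which lies within the Alu consensus. It was present in 5999 of 18060 such members (33.2%), in 37.2% of 2-peak and 53.2% of 9-peak regions of that length, and in 39.9% of all regions of that length. Members with a repeated centre had 2.41 CpG per 100 bp and those with a unique centre 1.74. Their ratios of own library to the 8 others were 2.44 and 2.32.

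By place, 2598 members (8.55%) lay within 1 kb of a transcript start of a protein-coding gene, 6.72% in other exons, 45.0% in introns, 13.2% in other annotated genes and 26.5% between genes. Regions with 9 peaks were at gene starts in 13.1% and between genes in 15.6%. Members at gene starts had the most signal in their own library, 5.33 CPM, and also in the others, 2.49 CPM. Members between genes had 4.01 and 1.62 CPM. The nearest region of any class was 3137 bp from the median member, and the nearest region with 8 or 9 peaks was 11444 bp away. Across chromosomes, members were 11.2% (chromosome 19) to 19.7% (chromosome 13) of regions. Per Mb, chromosome 19 had 42.9 regions with 9 peaks, and chromosome 13 had 5.29 such regions and 7.61 members.

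Among the members of each library, those with their peak in it, the one with the most counts there was a long region with ample signal in all 9. In untreated replicate 1 it lay in an intron of CUX1, a homeodomain transcription factor (chr7:101663951-101666419, 2469 bp), with 85, 28 and 50 counts in untreated, 48, 51 and 83 in TALE and 63, 93 and 48 in dCas9. The library with the peak was thus not the one with most counts, although it had the highest CPM (26.1 against at most 24.9). In TALE replicate 3 it lay at a start of MAD1L1, a spindle checkpoint gene (chr7:2256591-2258371), with 56, 38 and 45 counts in untreated, 51, 52 and 98 in TALE and 47, 74 and 36 in dCas9. Among members with their peak in dCas9 replicate 2, the highest count was at PDE4A, a cAMP phosphodiesterase (chr19:10569979-10571313). This member had 86 counts in that library and 34 to 65 in the others. Its central 31 bases occur at 3736 places in the genome, so the origin of its reads is uncertain. Of the rest, 5 lay in introns of ABCA3, MAD1L1 and CLSTN1, at a start of AGPAT3, and between genes near SMARCA4, with 46 to 95 counts in the library with the peak.

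The fold enrichment in the deposited peak lists, which is the authors' value, did not order regions as the counts did. Across the regions of a peak list, Spearman's rho between that fold and the counts per bp of the same library was 0.002 to 0.013 (9 lists, 95415 to 135643 regions, as a description with no test). Counts per bp of each library and 1 other library were correlated at 0.656 to 0.744 (9 values). The 484 members with a fold of 10 or more had a median of 11 counts, and so did the 10239 with a fold under 2. Folds were used only, as the lists print them, to choose which members at gene starts to show, and whether each stands beside its own peak was not tested. The member with the highest deposited fold per group, among those within 1 kb of a protein-coding start and outside of exons, was at AP1S1 (untreated replicate 2), KDM5A (TALE replicate 1) and SLC6A13 (dCas9 replicate 3). The last was picked for display because its counts sat mainly in 1 group, dCas9. Its peak was in dCas9 replicate 3, which held 11 of these counts, so this is in part fixed by the choice and is a description. Its central 300 bases are shown in GRCh37, plus strand, with CpG in capitals.
SLC6A13, dCas9 replicate 3, chr12:334030-334329: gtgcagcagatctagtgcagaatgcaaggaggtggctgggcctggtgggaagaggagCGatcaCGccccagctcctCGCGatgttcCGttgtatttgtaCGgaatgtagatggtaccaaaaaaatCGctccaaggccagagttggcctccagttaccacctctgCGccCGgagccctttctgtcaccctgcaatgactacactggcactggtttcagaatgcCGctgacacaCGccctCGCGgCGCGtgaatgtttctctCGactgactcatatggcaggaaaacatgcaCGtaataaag
AP1S1 encodes a clathrin adaptor subunit, and the member ends 469 bp before its start. It had 1, 10 and 4 counts in untreated, 3, 8 and 10 in TALE and 6, 6 and 6 in dCas9. The groups overlapped there, and its centre occurs at 271 places. KDM5A is a histone H3K4 demethylase, and its member had 2, 2 and 5 counts in untreated, 9, 4 and 2 in TALE and 0, 7 and 0 in dCas9. SLC6A13 is a GABA transporter, and its member, with 17 CpGs, had 3, 0 and 1 counts in untreated, 3, 0 and 0 in TALE and 0, 5 and 11 in dCas9. Its counts sat mainly in dCas9 replicates 2 and 3, with none in dCas9 replicate 1.

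Of members over exons, the same choice also named one at INSL6, a relaxin family gene of the testis (chr9:5185327-5185620, over an exon, 19 bp from an annotated start). Its 294 bp held 18 CpGs, and counts were 5, 0 and 0 in untreated, 2, 0 and 9 in TALE and 1, 0 and 0 in dCas9. At GAB1, a signalling adaptor (chr4:144387632-144387925), counts were 4, 2 and 0, then 0, 9 and 1, then 0, 0 and 0 in the same order of groups. In both, the library with the peak had 9 counts and the others 0 to 5. At NLRP11, FKBP10, RTTN and RHOH, the other members this choice named, the library with the peak had 10, 54, 7 and 39 counts.

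The gene lists held only 4 to 41 regions at their starts, members or not. The HOX genes, which set body position and are mostly silent outside of their own lineage, had 3 members among 21 regions at their starts (14.3%). Imprinted genes had 2 of 41 (4.88%), germline genes 3 of 21 (14.3%) and MHC class I genes 1 of 9 (11.1%). Genes near B2M had 3 of 35 (8.57%) and globin genes 0 of 4. For all protein-coding genes the share was 12.7%, and no test was run on counts this small. Within gene bodies, germline genes had 16 members of 56 regions (28.6%) imprinted genes 29 of 216 (13.4%), globin genes 4 of 34 (11.8%), genes near B2M 14 of 126 (11.1%), MHC class I genes 2 of 22 (9.09%) and HOX genes 3 of 44 (6.82%), against 13.6% for all protein-coding genes.

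At HOXA7 (chr7:27194140-27194889, 46 CpGs in 750 bp) counts were 4, 3 and 4 in untreated, 3, 0 and 14 in TALE and 2, 3 and 2 in dCas9. TALE replicate 3, which had the peak, was well above the 8 others, and the other TALE libraries were not. At HOXA11 (chr7:27224562-27225212, 34 CpGs) counts were 4, 4 and 7, then 4, 16 and 5, then 4, 4 and 4, with TALE replicate 2 alone high. At HOXC4 (chr12:54430523-54431117) untreated replicate 3 had 22 counts and the others 0 to 12.

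At HLA-G, a non-classical MHC class I gene (chr6:29795420-29795710, 18 CpGs), counts were 0, 2 and 2 in untreated, 0, 5 and 3 in TALE and 5, 11 and 6 in dCas9. On CPM the dCas9 library with the peak was at 2.86 and the highest of the others at 2.59. Among germline genes, the member at SYCP1, a synaptonemal complex protein (chr1:115397582-115397944, 25 CpGs), had 5, 2 and 7 counts in untreated, 6, 2 and 3 in TALE and 13, 6 and 0 in dCas9. Within the dCas9 group it thus ran from 0 to 13. BRDT, a testis bromodomain protein, and RNF17, a germline tudor protein, had 7 and 11 counts in the library with the peak and 0 to 4 and 1 to 10 in the others, with centres found at 3374 and 1547 places. Of the imprinted genes, ZDBF2 had 9 counts in dCas9 replicate 2 and 1 to 6 elsewhere, and L3MBTL1 had 15 in dCas9 replicate 3 and 4 to 14 elsewhere.

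The B2M promoter, the target of the treatment, is not a member. Its region (chr15:45003405-45003721, 20 CpGs, over exons of B2M and PATL2) had a peak in 2 libraries, TALE replicate 2 and dCas9 replicate 3. Counts were 0, 0 and 0 in untreated, 7, 10 and 9 in TALE and 14, 13 and 16 in dCas9. All 6 treated libraries had counts there, also the 4 without a peak. The nearest member to a B2M start was 21182 bp away in an intron of PATL2 (chr15:44982059-44982374), with 11, 0 and 8 counts in untreated, 4, 15 and 12 in TALE and 12, 20 and 7 in dCas9. The next, 23082 bp away in the same gene (chr15:44980176-44980474), had 8, 5 and 1, then 14, 5 and 15, then 11, 8 and 0. Neither separated the groups, and the centre of the nearer one occurs at 5147 places in the genome. Of the genes near B2M, SPG11 alone had members at its starts (3), with peaks in TALE replicates 2 and 3 and untreated replicate 3 and 18, 24 and 22 counts there.

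Group differences in MeDIP were tested with edgeR's quasi-likelihood test on the whole table. Only 5404 members (17.8%) passed its filter on low counts, against 93.4% of 9-peak regions. Of those 5404, 0 were called at an adjusted p under 0.05 in TALE against untreated, dCas9 against untreated, TALE against dCas9, and silenced against untreated. The percent called over all 105652 regions tested was 0, 0.000947, 0.000947 and 0 in the same order. The 1 region called for dCas9 against untreated was the B2M promoter (edgeR adjusted p = 0.0438, and 0.147 with DESeq2, which ends the call), and the 1 for TALE against dCas9 lay on the mitochondrial genome. Before adjustment, p was under 0.05 for 309, 368, 325 and 361 members (5.72%, 6.81%, 6.01% and 6.68%), and for 4.74%, 4.69%, 4.47% and 4.88% of all regions. DESeq2 called 0 members in each comparison. The rule used peaks of the same libraries, so nothing is read from these counts.

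The members with the lowest p are given as values only, since each had its peak in a library of the group that was higher. In an intron of RASGEF1C, a Ras exchange factor (chr5:179535225-179536455), counts were 4, 2 and 3 in untreated, 14, 12 and 23 in TALE and 15, 12 and 7 in dCas9. The peak was in TALE replicate 3, and the edgeR adjusted p for TALE was 0.772. In an intron of ACACA, the acetyl-CoA carboxylase of fatty acid synthesis (chr17:35616794-35617480), counts were 36, 20 and 18 in untreated, 7, 17 and 17 in TALE and 6, 11 and 7 in dCas9. The peak was in untreated replicate 1, and edgeR's adjusted p for dCas9 was 0.908. In an intron shared by NTAN1 and PDXDC1 (chr16:15132619-15132977), counts were 10, 6 and 5, then 7, 8 and 23, then 17, 40 and 19, with the peak in dCas9 replicate 2 and an adjusted p of 0.77 for dCas9 by edgeR.

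One member passed the threshold under 2 of the other settings and was singled out after its values were seen. Its peak was in dCas9 replicate 2, which held 30 of its counts, so higher values in dCas9 are in part fixed by the choice and the values below are a description. It overlaps the long non-coding gene LINC02832 on chromosome 2 (491 bp, 26 CpGs), 87087 bp from the nearest protein-coding start, that of SLC4A3. Counts were 0, 0 and 0 in untreated, 0, 5 and 7 in TALE and 11, 30 and 7 in dCas9. All untreated libraries were at 0 and all dCas9 libraries above, while TALE replicate 1 was also at 0. Against the limit of 3 counts over the 3 untreated libraries (0.340 CPM), the mean was at least 14.9-fold higher in dCas9 (5.05 ± 2.46 CPM) and at least 3.81-fold higher in TALE (1.30 ± 1.12 CPM, SD, n = 3 each). It did not pass the count filter, so the test did not include it. With no filter the edgeR adjusted p for dCas9 against untreated was 0.0459, and without TALE replicate 1 it was 0.0357. DESeq2 gave 0.237. Its central 31 bases occur at 133 places in the genome, so which copy the reads came from is uncertain.

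RNA was not used to choose the members, so genes with a member at their start could be tested. Members lay within 1 kb of a transcript start of 3896 named genes, of which 2708 were in the RNA table and 1658 passed the count filter (61.2%). For genes with a 9-peak region at their start this share was 71.4%, and over all genes of the table it was 24.7%. Of the 1658, edgeR called 1 gene in each comparison with the untreated cells (TALE, dCas9, silenced) and 0 when the treatments were set against each other. The percent called over all 13786 genes was 0.0218, 0.0290 and 0.0363 for the first 3 and 0 for the last. The 1 gene was GBP5 each time, and a single gene does not set these genes apart from the rest. Before adjustment, p was under 0.05 for 96 (TALE), 83 (dCas9) and 87 (silenced) of these genes, and for 93 between the treatments. Those shares were 5.79%, 5.01%, 5.25% and 5.61%, below the 7.15%, 5.93%, 6.35% and 6.38% of all genes. Their median log2 fold changes were 0.009, 0.005, 0.007 and 0.004, with 0.002, -0.003, 0.000 and 0.002 over all genes. DESeq2 called 1, 3, 4 and 0 of these genes (TALE, dCas9, silenced, between treatments), and 3, 13, 17 and 0 over all genes.

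GBP5 encodes a guanylate-binding protein, an interferon-induced GTPase of innate immunity. Its RNA was at 13.1, 19.8 and 20.9 CPM in untreated, 4.61, 6.24 and 8.89 in TALE and 7.14, 6.73 and 7.04 in dCas9. Every treated library was below every untreated one. The log2 fold change was -1.43 (SE 0.221) for TALE and -1.35 (SE 0.222) for dCas9, with edgeR adjusted p of 0.0214 and 0.0352. These comparisons share the untreated libraries. For silenced against untreated it was -1.39 (SE 0.184, edgeR adjusted p = 0.00283). Leaving out a library moved the fold little, from -1.70 to -1.24 for TALE, -1.54 to -1.22 for dCas9 and -1.58 to -1.27 for silenced, but it could end the call. Without untreated replicate 3 the adjusted p was 0.284 for TALE, 0.435 for dCas9 and 0.0784 for silenced. Without untreated replicate 2, TALE replicate 1 or TALE replicate 2 the TALE value was 0.195, 0.0625 and 0.257. For dCas9 it was 0.233 without untreated replicate 2, 0.0587 without TALE replicate 2, and 0.0593, 0.255 and 0.175 without dCas9 replicates 1 to 3. Over all settings it ran from 1.76e-09 to 0.284 for TALE, 1.67e-08 to 0.435 for dCas9 and 5.33e-14 to 0.0784 for silenced.

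The member at GBP5 (chr1:89738211-89738507, 9 CpGs in 297 bp) spans an annotated transcript start and overlaps an exon. The central 31 bases of this member occur at 3 places in the genome, so the origin of its reads is uncertain. Its peak was in untreated replicate 2. Counts were 5, 8 and 7 in untreated, 0, 3 and 4 in TALE and 4, 4 and 2 in dCas9. On the CPM scale these were 1.54, 3.40 and 2.18, then 0, 1.18 and 1.10, then 1.58, 1.04 and 0.863. The untreated libraries were above all TALE libraries, and 1 of the dCas9 libraries lay above the lowest untreated one. The count filter removed it, and with no filter the edgeR unadjusted p was 0.0858 for silenced against untreated and the adjusted p was 1. The region was chosen by a peak in an untreated library, so the direction of its MeDIP counts is in part fixed by that choice and is set beside the RNA as values only.

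**Figure D3:**
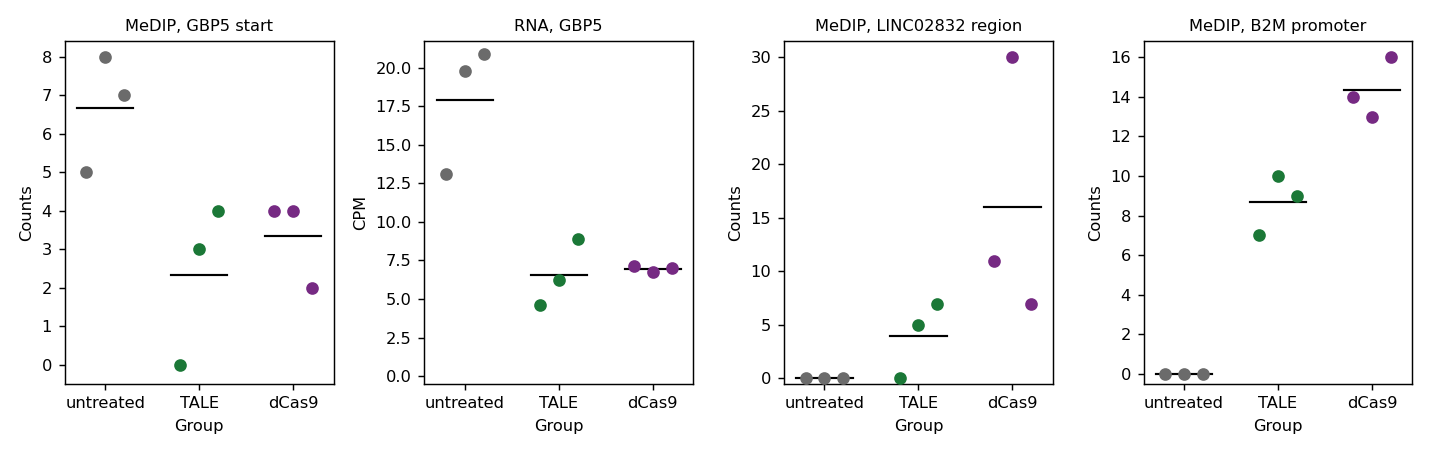
Values in each library (points, replicates 1 to 3 from left to right) with the group mean (line): MeDIP counts at the GBP5 start, GBP5 RNA in CPM, and MeDIP counts at the LINC02832 member and at the B2M promoter, which is not a member. GBP5 RNA is 13.1 to 20.9 CPM in untreated and 4.61 to 8.89 in treated libraries, and the last 2 regions have 0 counts in all untreated libraries.

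With edgeR and its count filter, no other gene with a member at its start passed the threshold. DESeq2 also called FHL2 (adjusted p = 0.0293), VWDE (adjusted p = 0.00388) and ALDH1A2 for silenced, and 2 genes beside GBP5 for dCas9. With no filter, edgeR also called FHL2 (adjusted p = 0.00542), RBM47 (adjusted p = 0.00718), UTRN (adjusted p = 6.62e-05) and others. With the filter, the genes with the next lowest p for silenced against untreated were FHL2, a LIM-domain cofactor (21.2 ± 1.71 CPM in untreated, 12.5 ± 0.905 in TALE, 14.0 ± 1.86 in dCas9, SD, n = 3 each, edgeR adjusted p = 0.0573), and VWDE (115 ± 9.48, 82.0 ± 3.18 and 84.5 ± 3.90 CPM, edgeR adjusted p = 0.0829). RBM47, an RNA-binding protein, was at 5.05 ± 0.474, 8.86 ± 0.736 and 9.15 ± 1.49 CPM (edgeR adjusted p = 0.0947). UTRN, which encodes utrophin, was at 35.3 ± 6.20, 22.7 ± 7.87 and 19.3 ± 1.49 CPM (edgeR adjusted p = 0.113). In FHL2, VWDE and RBM47 the treated libraries did not overlap with the untreated ones, and in UTRN TALE replicate 1, at 31.5 CPM, lay within the untreated range. These genes were picked for a low p, so such separation is in part fixed by the choice. How many of all genes separate in this way was not counted.

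The starts are those of any annotated transcript, and the members of FHL2, VWDE, RBM47 and UTRN lay well inside the genes. For UTRN, on the plus strand, the gene begins at 144606471 and the member at 145074654. The members at these starts did not divide by group. At FHL2 (chr2:106011638-106012507) MeDIP counts were 4, 4 and 8 in untreated, 10, 0 and 5 in TALE and 4, 7 and 8 in dCas9. At RBM47 (chr4:40518149-40518549) they were 16, 3 and 6, then 6, 6 and 4, then 2, 8 and 0. For dCas9 against untreated, the lowest p after GBP5 were at ZNF680, a zinc finger gene (9.54 ± 0.737 CPM in untreated and 16.1 ± 0.961 in dCas9, edgeR adjusted p = 0.151), UTRN, RBM47 and ADA, adenosine deaminase (3.05 ± 0.347 and 6.38 ± 1.22 CPM, edgeR adjusted p = 0.208). For TALE against untreated, CTDSPL, a phosphatase gene, was at 16.2 ± 1.74 CPM in untreated and 24.6 ± 2.65 in TALE (edgeR adjusted p = 0.333). For TALE against dCas9 the lowest p were at MTATP6P1, SNORA22, SCARNA5, KLK1 and MLXIPL, with edgeR adjusted p of 0.511 to 0.53. MTATP6P1 is a nuclear copy of a mitochondrial gene, so its counts are uncertain.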

How the data were processed

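MeDIP-seq and RNA-seq of 9 libraries each were used. The authors deposited raw counts per region and per gene symbol, and a peak list per MeDIP library with a score, a fold enrichment (ratio), and −log10 p and −log10 q values. Per the submitters' processing notes, the build was hg19, MeDIP data went through BWA 0.7.5, Picard, MACS2 and bedtools, and RNA data through STAR 2.3.0. The peak caller's settings and control, and the use of strand, are not given in the sources used here.

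Peaks and regions were overlapped with bedtools 2.31.1, and place and sequence came from GENCODE on GRCh37. A region at a gene start lies within 1 kb of any annotated transcript start of the gene, which can be far inside the gene. CPM used TMM factors. Counts were tested with edgeR 4.0.16 (glmQLFit and glmQLFTest, 1 model of 3 group means, filterByExpr with a minimum of 10 counts, Benjamini-Hochberg adjusted p under 0.05 over the whole table). This fit was tested on simulated data in which only features with higher counts were changed. The simulation therefore does not show how well changes at members with few counts would be found. Alternatives were DESeq2 1.42.0, its size factors, no filter, a replicate block and each library left out. Limits from a count of 0 cover counting error only.

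The members, lists and tests were chosen with earlier results of these data known. Named regions were those with the most counts among each library's own members and the highest deposited fold at protein-coding starts (3 per group). Those nearest B2M and those at listed gene starts were also named. Named genes were the 5 with the lowest p per comparison. One region named by this rule, and the sequences of some others, are not reported here.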

Additional observations from a re-analysis of the deposited data

How the results depend on the processing

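With only peaks of a deposited −log10 q of at least 2 counted, 47080 regions had a peak in exactly 1 library, against 30372, and with each library left out the number ran from 31101 to 31487. The mean own-group ratio was 1.00 to 1.01 with each library left out. MeDIP calls of members stayed at 0 in all settings run for TALE against untreated, TALE against dCas9 and silenced against untreated. For dCas9 against untreated there was 1 call with no filter, and 0 to 1 with each library left out, the 1 being without TALE replicate 1 (LINC02832). For RNA of genes with a member at their start, calls without a filter numbered 9 (TALE), 8 (dCas9), 8 (silenced) and 3 (between treatments), and DESeq2 gave 3 (dCas9) and 4 (silenced). With each library left out, calls numbered 0 to 3 (TALE), 0 to 2 (dCas9), 0 to 5 (silenced) and 0 to 1 (between treatments). The cause of these changes was not tested. Over all genes DESeq2 called 13 (dCas9) and 17 (silenced). Calls over all genes or regions with no filter, or with a library left out, are not given here. Nothing about the members is therefore read from these counts. DESeq2's size factors and a window of 2 kb changed no count of calls.

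Replicate numbers showed no sign of pairing the samples. The check correlated the deviations of log CPM from the mean of each library's own group, between libraries of different groups. Same-numbered libraries were at -0.005 to 0.004 for MeDIP and -0.256 to 0.101 for RNA. Differently numbered libraries were at -0.008 to 0.009 for MeDIP and -0.124 to 0.218 for RNA. With the replicate block, RNA calls for dCas9 against untreated went from 1 to 0 (GBP5, adjusted p = 0.0589), and the other 7 counts of calls were the same. The B2M promoter, not a member, also lost its call for dCas9 with the block (adjusted p = 0.085).

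The median member had 43 counts summed over 9 libraries, and 17.8% of members passed the count filter.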
